A study of Caenorhabditis elegans with 9 samples.

Results

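The 8 squashed vulva genes sqv-1 to sqv-8 of Caenorhabditis elegans were examined in worms that cannot add, or cannot remove, O-GlcNAc, a single sugar carried by many proteins inside the cell. They were selected by the gene symbol that the array's annotation gives each probe set, which found 10 probe sets for 8 genes, of 22548 probe sets and 17118 genes tested. The arrays came from ogt-1(ok430) larvae, which lack the O-GlcNAc transferase that adds the sugar, from oga-1(ok1207) larvae, which lack the O-GlcNAcase that removes it, and from the wild type, 3 arrays each. All were fed larvae of the fourth larval stage (L4), when the vulva takes shape, and each array was made from the total RNA of 20 whole larvae, amplified before labelling. The labels call the arrays biological replicates but do not say whether they came from separate cultures, so the p-values measure the spread between these samples. Both mutant alleles are carried through the whole animal, so a value stands for all tissues together, and fewer cells of a type cannot be told apart from less RNA per cell.

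The sqv genes encode the machinery that makes chondroitin, a long sugar chain carried by secreted proteins, and their mutants fail to open the space inside the developing vulva and the eggshell space of the early embryo. SQV-4 and SQV-1 make activated sugars in sequence, and SQV-7 carries activated sugars into the Golgi. SQV-6, SQV-3, SQV-2 and SQV-8 then build, sugar by sugar, the short linker that joins the chain to its core protein, and heparan sulfate, the other such chain of the worm, starts from the same linker. SQV-5, with its partner MIG-22, extends the chondroitin chain itself. By the RefSeq annotation of assembly WBcel235, sqv-2, sqv-7 and sqv-8 lie on chromosome II, sqv-4 and sqv-6 on V, sqv-1 on IV, sqv-3 on III and sqv-5 on I.

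All arrays had a mean log2 signal of 5.91, and arrays of 1 strain correlated across probe sets at 0.991 to 0.993 in ogt-1, 0.990 to 0.992 in oga-1 and 0.990 to 0.994 in the wild type. The stronger ogt-1 probe set averaged 7.03 ± 0.08 in ogt-1 larvae, 7.94 ± 0.13 in oga-1 larvae and 7.90 ± 0.07 in the wild type (SD, n = 3 each), which fits the labels. The oga-1 probe sets were dim, and the strongest averaged 4.93 ± 0.13 in oga-1 larvae, 5.32 ± 0.14 in ogt-1 larvae and 5.25 ± 0.15 in the wild type (SD, n = 3 each). It was called between the mutants, with an ogt-1 minus oga-1 difference of 0.38 (limma adjusted p = 0.028), and not between oga-1 larvae and the wild type, at -0.32 (limma adjusted p = 0.22). Signal is given in log2 units, so a difference of 1 is a doubling, and a gene was called where its limma adjusted p, over all probe sets, was under 0.05.

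In ogt-1 larvae 3 sqv genes fell, the chondroitin synthase sqv-5, the linker galactosyltransferase sqv-2 and the Golgi transporter sqv-7. The signal of sqv-5 was 56.1% of the wild-type signal, that of sqv-2 71.7% and that of sqv-7 75.4%. Of the 8, 0 rose, and over all genes 9.72% were called lower and 8.65% higher. In oga-1 larvae 0 of 8 were called in limma, beside 0.269% of all genes. An unadjusted p under 0.05 in limma was seen in 3, but the share of all genes at that limit was not counted. Between the mutants, 4 were lower in ogt-1 than in oga-1 larvae, the same 3 and sqv-1, beside 14.7% of all genes.

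**Figure D1:**
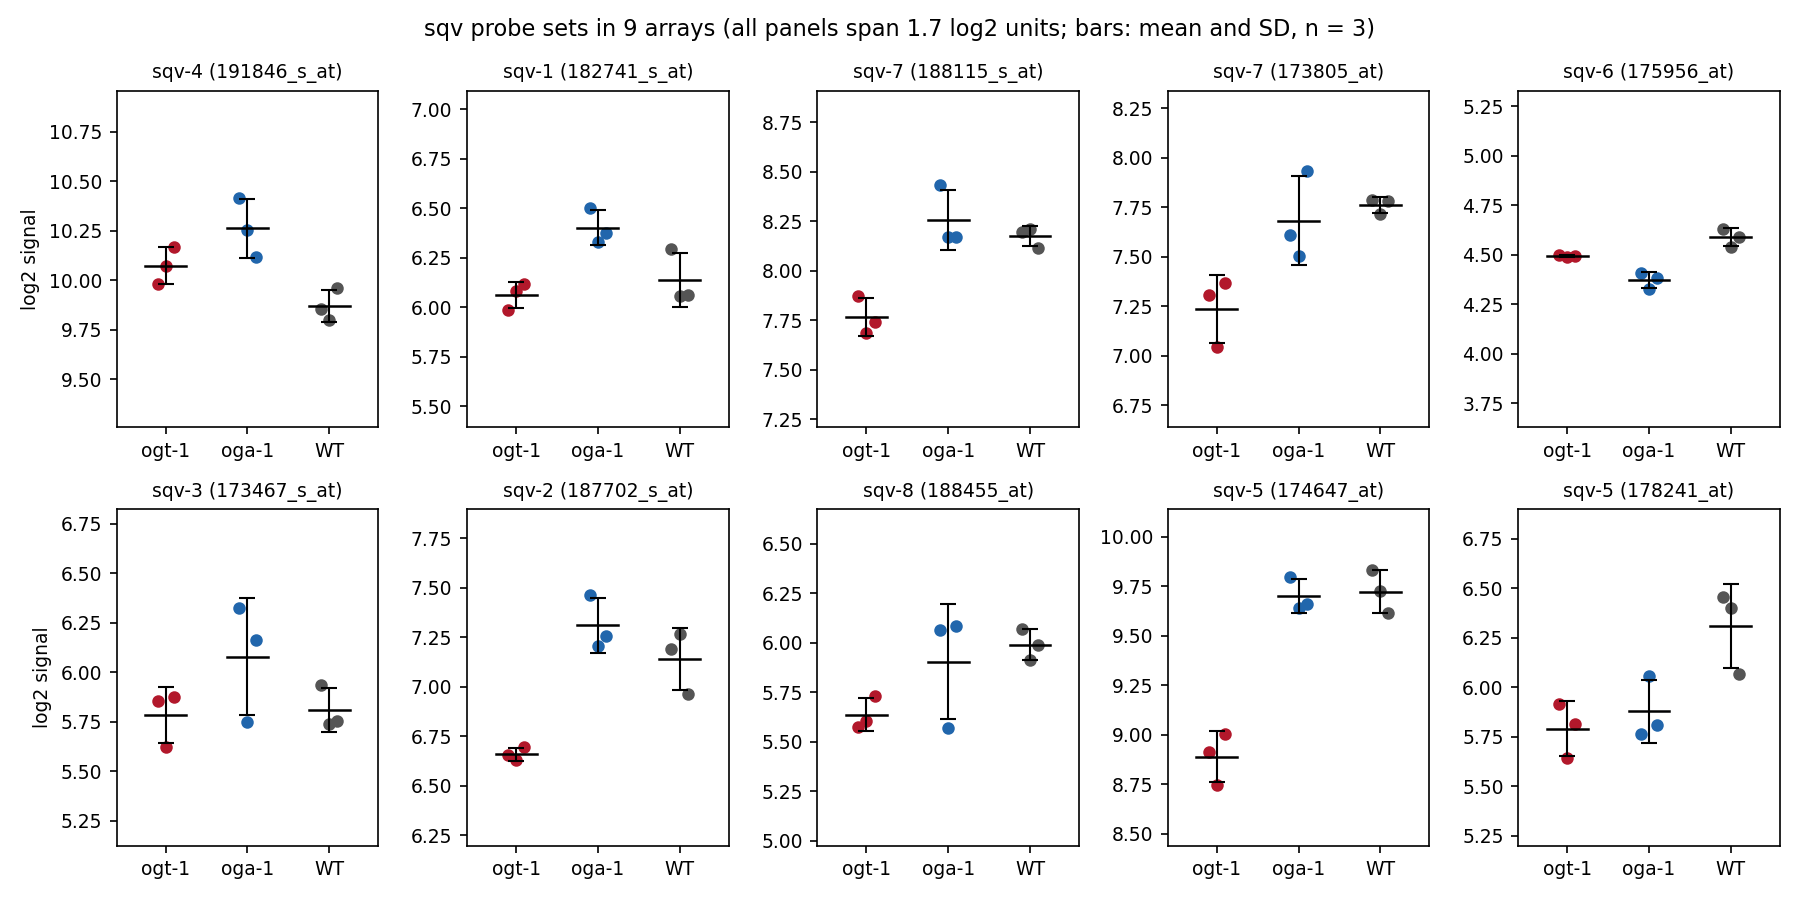
Log2 signal of the 10 sqv probe sets in each of the 9 arrays, in pathway order, with ogt-1, oga-1 and wild-type (WT) arrays from left to right; bars show the mean and SD of 3 arrays, and every vertical axis spans the same range. The ogt-1 arrays of the brighter sqv-5 set (8.75 to 9.01), of sqv-2 (6.63 to 6.69) and of both sqv-7 sets lie below all others.

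The gene sqv-4 encodes UDP-glucose dehydrogenase, which makes UDP-glucuronic acid, the sugar donor for the linker's last step and for the chain. Its signal was 9.98, 10.07 and 10.17 in ogt-1 arrays, 10.42, 10.25 and 10.12 in oga-1 arrays, and 9.85, 9.80 and 9.96 in wild-type arrays. Every mutant array thus lay above every wild-type array, and the oga-1 arrays overlapped the ogt-1 arrays. The difference from the wild type was 0.39 in oga-1 larvae (95% interval 0.17 to 0.61, unadjusted p = 0.0024 and limma adjusted p = 0.13) and 0.20 in ogt-1 larvae (95% interval -0.02 to 0.42, limma adjusted p = 0.23), and neither passed the test. With array weights, which give less weight to noisier arrays, the oga-1 difference was 0.39 and passed (limma adjusted p = 0.046).

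The gene sqv-1 encodes UDP-glucuronic acid decarboxylase, which turns the product of SQV-4 into UDP-xylose, the donor of the linker's first sugar. It measured 5.99, 6.08 and 6.11 in ogt-1 arrays, 6.50, 6.33 and 6.38 in oga-1 arrays, and 6.29, 6.06 and 6.06 in wild-type arrays. The 3 oga-1 arrays were the highest of the 9, while ogt-1 and wild-type arrays overlapped. The gene was lower in ogt-1 than in oga-1 larvae at a log2 difference of -0.34 (95% interval -0.55 to -0.13, limma adjusted p = 0.023). That call ended without ogt-1 array 1 or 2 or oga-1 array 1 or 3, with adjusted p between 0.050 and 0.091 in limma. It also ended with an intensity trend and robust variance (adjusted p = 0.051 in limma), without the 3 arrays of widest spread (adjusted p = 0.23 in limma), and where at least 1.5-fold was required. Against the wild type the differences were -0.08 in ogt-1 larvae (95% interval -0.29 to 0.13) and 0.26 in oga-1 larvae (95% interval 0.05 to 0.48, limma adjusted p = 0.24).

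The transporter gene sqv-7, whose protein moves UDP-glucuronic acid, UDP-galactose and UDP-N-acetylgalactosamine into the Golgi, fell in ogt-1 larvae by both of its probe sets. The brighter measured 7.87, 7.69 and 7.74 in ogt-1 arrays, 8.43, 8.17 and 8.17 in oga-1 arrays, and 8.20, 8.21 and 8.12 in wild-type arrays. All ogt-1 arrays lay below the other 6, and oga-1 and wild-type arrays overlapped. The log2 difference from the wild type was -0.41 (95% interval -0.62 to -0.19, limma adjusted p = 0.014), and from oga-1 larvae -0.49 (95% interval -0.71 to -0.27, limma adjusted p = 0.0036). The dimmer probe set gave -0.52 against the wild type (limma adjusted p = 0.011) and -0.44 against oga-1 larvae (limma adjusted p = 0.021). The call of the brighter set against the wild type ended without ogt-1 array 2 (adjusted p = 0.063 in limma) or wild-type array 2 (adjusted p = 0.057 in limma). In oga-1 larvae its difference from the wild type was 0.08 (95% interval -0.13 to 0.30) by the brighter and -0.08 (95% interval -0.35 to 0.19) by the dimmer set.

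Of the 4 linker transferases, the 1 that passed the test was sqv-2, which adds the second galactose. It measured 6.66, 6.63 and 6.69 in ogt-1 arrays, 7.46, 7.21 and 7.26 in oga-1 arrays, and 7.19, 7.27 and 6.96 in wild-type arrays. The ogt-1 arrays were close together and below the other 6. The log2 difference was -0.48 from the wild type (95% interval -0.71 to -0.25, limma adjusted p = 0.0075) and -0.65 from oga-1 larvae (95% interval -0.88 to -0.42, limma adjusted p = 8.8e-04). In oga-1 larvae the difference from the wild type was 0.17 (95% interval -0.06 to 0.40, limma adjusted p = 0.48).

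The glucuronosyltransferase gene sqv-8, which adds the linker's last sugar, had the same order in ogt-1 and wild-type larvae without passing the test. Its signal was 5.57, 5.61 and 5.73 in ogt-1 arrays, 6.06, 5.57 and 6.08 in oga-1 arrays, and 6.07, 5.92 and 5.99 in wild-type arrays. All ogt-1 arrays were below all wild-type arrays, while 1 oga-1 array, the second, was as low as the ogt-1 arrays. The log2 difference between ogt-1 and wild-type larvae was -0.35 (95% interval -0.64 to -0.07, unadjusted p = 0.019 and limma adjusted p = 0.090). It passed when the 2 strains were fitted alone (adjusted p = 0.022 in limma) and without oga-1 array 2 (adjusted p = 0.014 in limma).

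The other linker genes gave no call in any of the 3 comparisons. The xylosyltransferase gene sqv-6, which starts the linker, was read by a dim probe set near the lowest signals of the arrays (3.49 to 3.61). It measured 4.50, 4.49 and 4.49 in ogt-1 arrays, 4.41, 4.33 and 4.38 in oga-1 arrays, and 4.63, 4.54 and 4.59 in wild-type arrays. The 3 strains did not overlap, with oga-1 lowest and wild type highest, but the differences were small: -0.09 in ogt-1 larvae (limma adjusted p = 0.54) and -0.21 in oga-1 larvae (limma adjusted p = 0.25). The gene sqv-3, whose enzyme adds the first galactose, measured 5.85, 5.62 and 5.88 in ogt-1 arrays, 6.33, 5.75 and 6.16 in oga-1 arrays, and 5.94, 5.74 and 5.75 in wild-type arrays. All 3 strains overlapped, and the difference from the wild type had a 95% interval of -0.33 to 0.28 in ogt-1 larvae and of -0.03 to 0.57 in oga-1 larvae.

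By the brightest probe set of each gene, sqv-5, the chondroitin synthase gene, had the lowest ogt-1 minus wild-type log2 difference of the 8. The dimmer sets of sqv-5 and sqv-7 both gave -0.52. The brighter sqv-5 set measured 8.91, 8.75 and 9.01 in ogt-1 arrays, 9.80, 9.64 and 9.66 in oga-1 arrays, and 9.83, 9.72 and 9.61 in wild-type arrays. The ogt-1 arrays were below all others, and oga-1 and wild-type arrays overlapped. The log2 difference was -0.83 from the wild type (95% interval -1.05 to -0.62, limma adjusted p = 1.7e-04) and -0.81 from oga-1 larvae (95% interval -1.03 to -0.59, limma adjusted p = 1.6e-04). Both calls held in each of the 9 fits that dropped a single array. In oga-1 larvae this probe set differed from the wild type by -0.02 (95% interval -0.24 to 0.20).

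The dimmer sqv-5 probe set placed the oga-1 arrays elsewhere. It measured 5.91, 5.64 and 5.82 in ogt-1 arrays, 5.77, 6.06 and 5.81 in oga-1 arrays, and 6.46, 6.40 and 6.07 in wild-type arrays. Here both mutants lay below the wild type and overlapped each other, with oga-1 array 2 (6.06) just under wild-type array 3 (6.07). Against the wild type it fell by 0.52 in ogt-1 larvae (limma adjusted p = 0.014), while in oga-1 larvae the difference was -0.43 (unadjusted p = 0.0054 and limma adjusted p = 0.17). Between the mutants it was -0.09 (limma adjusted p = 0.70), so the call between ogt-1 and oga-1 larvae rests on the brighter probe set. Which parts of the transcript the 2 sets read was not analysed here.

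**Figure D2:**
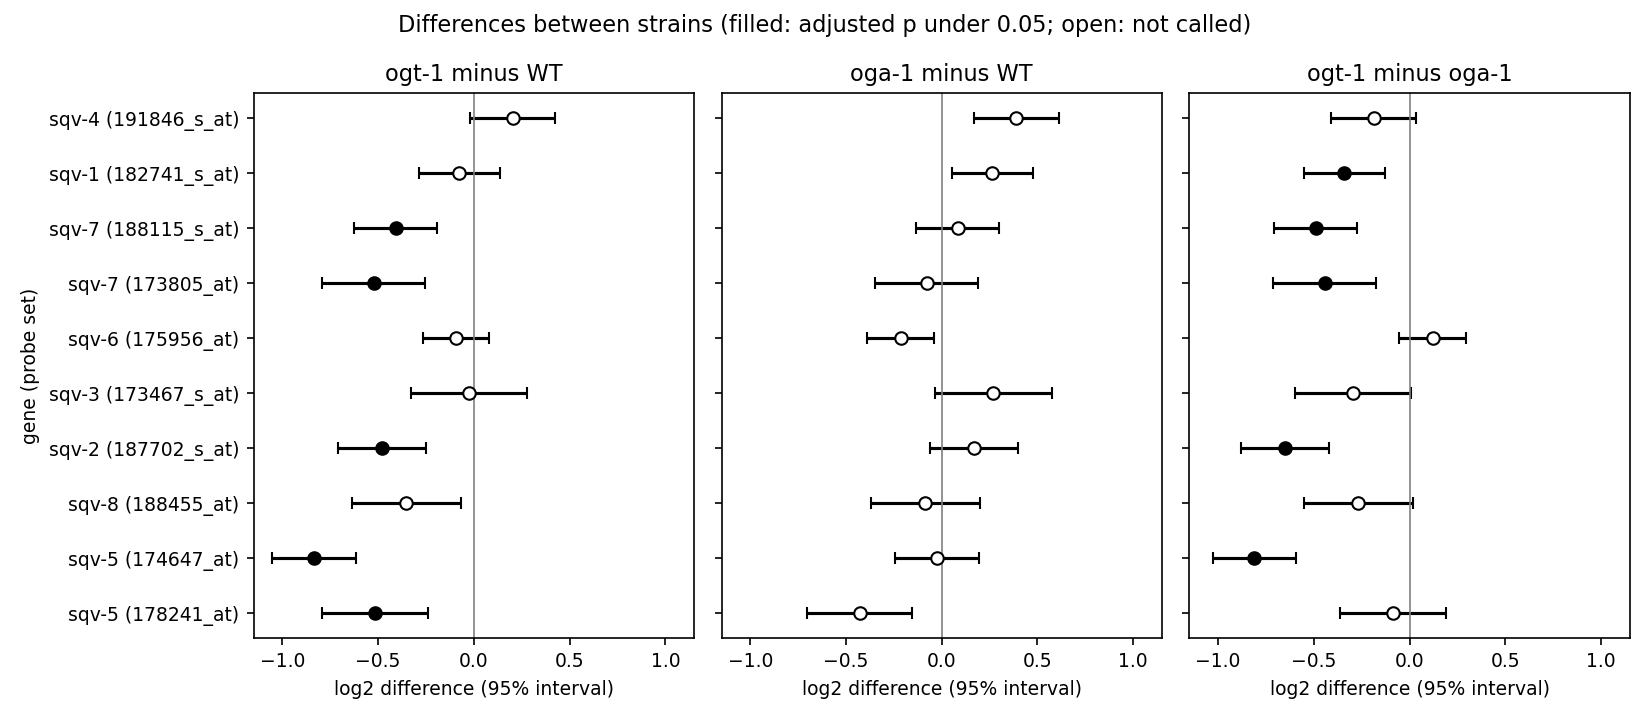
Log2 differences of the 10 sqv probe sets with 95% intervals for ogt-1 minus wild type (WT), oga-1 minus wild type and ogt-1 minus oga-1; filled points had an adjusted p under 0.05 and open points did not. The filled points are sqv-7, sqv-2 and sqv-5 in ogt-1 minus wild type, none in oga-1 minus wild type, and sqv-1, sqv-7, sqv-2 and the brighter sqv-5 set in ogt-1 minus oga-1.

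Counted over genes, 3 of 8 sqv genes were called lower and 0 higher in ogt-1 larvae against the wild type, where 9.72% of all genes were called lower, 8.65% higher and 18.4% either way. The log2 difference was below 0 in 7 of 8, as in 55.8% of all genes, with a median of -0.22 beside -0.02 over all genes. Arrays of ogt-1 and wild-type larvae did not overlap in 6 of 8, beside 33.7% of all genes. Of the 10 sqv probe sets 5 were called, beside 17.3% of all probe sets.

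In oga-1 larvae against the wild type 0 of 8 were called, where 0.204% of all genes were called higher, 0.0643% lower and 0.269% either way, and 0 of 10 probe sets beside 0.257%. The median was 0.13 beside -0.02 over all genes, and arrays did not overlap in 3 of 8, beside 20.9% of all genes. Between the mutants 4 of 8 were called lower in ogt-1 larvae and 0 higher, where 14.7% of all genes were called lower, 10.3% higher and 25% either way. The median was -0.32 beside 0.02, arrays did not overlap in 5 of 8, beside 36.6% of all genes, and 5 of 10 probe sets were called, beside 23.9%. The shares called lower were thus above those of all genes in both comparisons with ogt-1 larvae. The genes were, however, chosen with results known, and the counts were not tested. Of the 8, 7 lay above the median level of all probe sets, and the share among genes of like signal was not counted. The 3 comparisons share arrays, those of each strain standing in 2 of them.

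Whether the position of a gene in the pathway goes with its call was not tested, and sqv-5 is the only sqv gene of chain extension. In ogt-1 larvae against the wild type sqv-4 and sqv-1, which make the activated sugars, were not called, while the transporter gene sqv-7 fell. Of the linker genes sqv-2 fell and sqv-6, sqv-3 and sqv-8 were not called, and sqv-5 fell. Differences between genes were also taken inside each array, where a common scaling error cancels. The sqv-4 signal minus the sqv-5 signal was 1.07, 1.32 and 1.17 in ogt-1 arrays, 0.62, 0.61 and 0.46 in oga-1 arrays, and 0.02, 0.08 and 0.35 in wild-type arrays. The 3 strains did not overlap, and the mean lay 1.04 above the wild type in ogt-1 larvae and 0.41 above it in oga-1 larvae. The brighter sqv-5 probe set was used. In the dimmer set the ogt-1 and oga-1 arrays overlapped, so the separation of the mutants rests on the brighter set. The pair was picked after its values were seen, so this is a description, and the level of either gene against the other has no meaning across probe sets.

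The gene mig-22, which encodes the partner of SQV-5 in chain extension and is named here for that role, was lower in ogt-1 larvae as well. It measured 7.79, 7.65 and 7.55 in ogt-1 arrays, 7.79, 7.64 and 7.65 in oga-1 arrays, and 8.13, 7.92 and 7.91 in wild-type arrays. Both mutants lay below the wild type by a like amount, -0.32 in ogt-1 larvae (limma adjusted p = 0.045) and -0.29 in oga-1 larvae, which did not pass (limma adjusted p = 0.21). The second mig-22 probe set gave -0.27 (limma adjusted p = 0.075) and -0.07 (limma adjusted p = 0.79). Within arrays, sqv-5 minus mig-22, by the brighter probe set of each, was 1.12, 1.09 and 1.45 in ogt-1 arrays, 2.01, 2.00 and 2.01 in oga-1 arrays, and 1.74 ± 0.06 in wild-type arrays (SD, n = 3), again without overlap. The values shown used neither the dimmer sqv-5 set nor the second mig-22 set. With the dimmer sqv-5 set in place of the brighter, the arrays of all strains overlapped. With the second mig-22 set in place of the brighter, oga-1 and wild-type arrays overlapped, so this separation rests on the brighter sets.

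**Figure D3:**
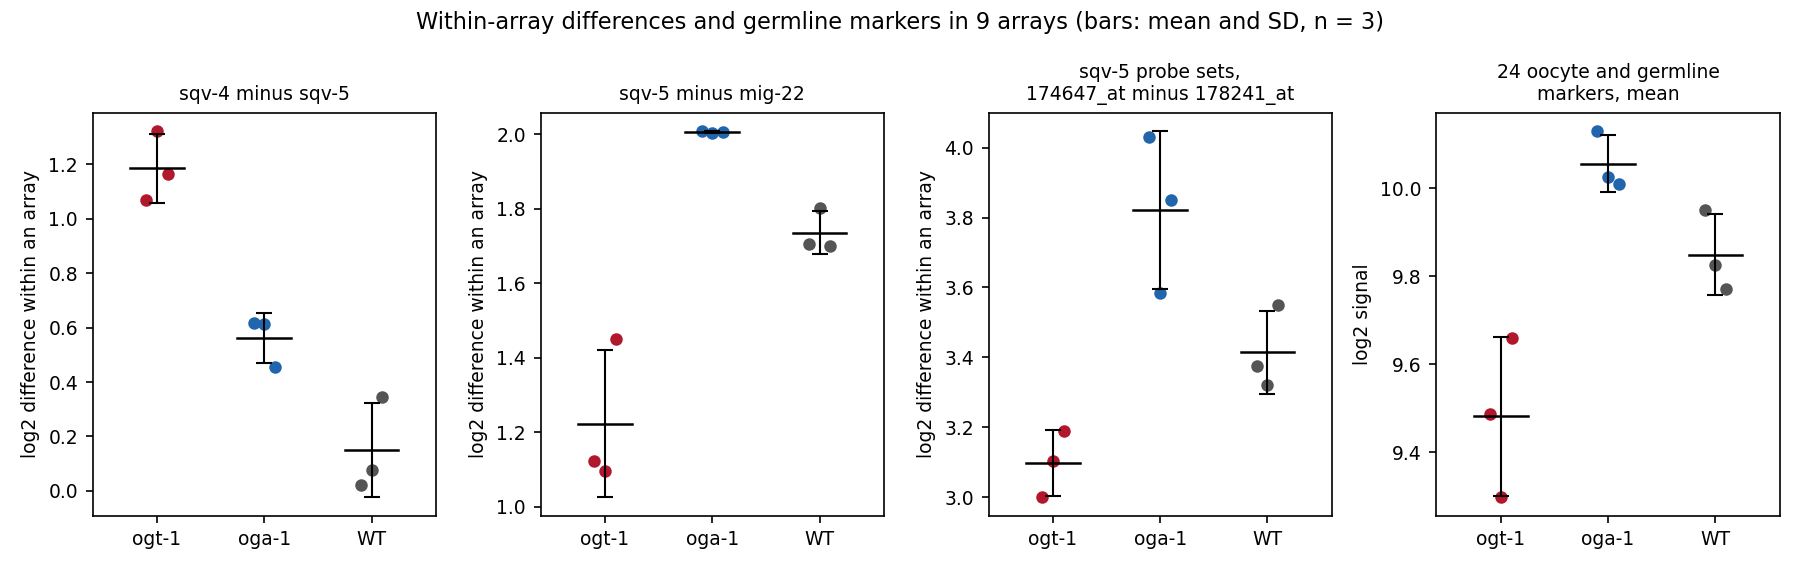
Values in each of the 9 arrays with the mean and SD of 3 arrays, for ogt-1, oga-1 and wild-type (WT) larvae from left to right: sqv-4 minus sqv-5, sqv-5 minus mig-22, the 2 sqv-5 probe sets subtracted from each other, and the mean of 24 oocyte and germline markers, all on the log2 scale. In each of the 4 panels the 3 strains do not overlap, and the first 2 panels use only the brighter probe set of sqv-5 and of mig-22. Not every difference taken did so. In sqv-1 minus sqv-4 the oga-1 and wild-type arrays overlapped, and the 2 sqv-7 probe sets subtracted from each other overlapped in all strains. The share of gene pairs that separate the strains was not counted.

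Chondroitin chains sit on core proteins, and in C. elegans many of these are the cpg genes, of which cpg-1 and cpg-2 serve the eggshell. With mig-22, 7 of 10 listed genes were measured. In ogt-1 larvae 4 were lower and 1 higher than in the wild type, with a median log2 difference of -0.32. The shares over all genes, for this list and those below, were 9.72% called lower and 8.65% higher in ogt-1 larvae against the wild type. Between the mutants the shares were 14.7% lower and 10.3% higher in ogt-1 larvae. The core protein gene cpg-2 fell by 0.42 (limma adjusted p = 0.012), and cpg-4 by 0.48 (limma adjusted p = 0.032), although the other probe set of each was not called, at -0.17 and -0.39. The gene cpg-9 rose by 0.48 (limma adjusted p = 0.0027). Against oga-1 larvae 4 were lower and 1 higher, with cpg-1 at -0.55, cpg-4 at -0.66 and cpg-9 at 0.65, and 0 were called in oga-1 larvae against the wild type.

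Of 8 measured genes of UDP-sugar supply, whose enzymes feed the pathway, 4 fell in ogt-1 larvae, 0 rose and 4 did not pass. The median log2 difference was -0.42. Among all genes 9.72% were called lower than in the wild type and 14.7% lower than in oga-1 larvae. The phosphoglucomutase gene pgm-1, whose enzyme makes glucose 1-phosphate for UDP-glucose, fell by 0.93 (limma adjusted p = 1.6e-04). Its arrays read 8.71, 8.57 and 8.76 in ogt-1 larvae, 9.81, 9.64 and 9.98 in oga-1 larvae, and averaged 9.61 ± 0.12 in the wild type (SD, n = 3). The gene gfat-1, which starts hexosamine synthesis, fell by 0.78 (limma adjusted p = 0.0021). Against oga-1 larvae 5 of 8 were lower, pgm-1 by a log2 difference of -1.13 and gfat-2 by -0.70 (-0.28 by its other probe set), and in oga-1 larvae against the wild type 0 were called.

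Heparan sulfate shares the linker, and its own genes were mixed. Of 11 measured genes of its synthesis and sulfation, 2 fell in ogt-1 larvae and 1 rose, with a median of -0.09. Among all genes 9.72% fell and 8.65% rose. The polymerising enzyme gene rib-2 rose by 0.36 (limma adjusted p = 0.031). The sulfate donor is made by PPS-1, whose gene fell by 0.36 (limma adjusted p = 0.046), and the gene of a transporter of that donor, pst-2, fell by 0.73 (limma adjusted p = 0.017). Against oga-1 larvae the same counts held, 2 lower and 1 higher, with pps-1 at -0.79, pst-2 at -0.63 and rib-2 at 0.33. Of 6 core protein genes 1 was lower, the perlecan gene unc-52, by -0.62 against the wild type (limma adjusted p = 5.2e-04) and -0.66 against oga-1 larvae, but its other probe sets gave -0.02 and -0.05 against the wild type.

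Among 13 other nucleotide sugar transporter genes, relatives of sqv-7, 3 fell in ogt-1 larvae and 0 rose, with a median of 0.01. They included nstp-2, by 0.83 (limma adjusted p = 2.9e-04), and ugtp-1, by 0.38 (limma adjusted p = 0.028). Among all genes 9.72% fell in ogt-1 larvae, and 14.7% were lower than in oga-1 larvae. Against oga-1 larvae 2 were lower, the same pair, at -0.95 and -0.50, and 1 was higher, nstp-7, at 0.26. The 6 glct genes, relatives of sqv-8, gave 0 calls by limma in each comparison, and 1 had an unadjusted p under 0.05, glct-1 in oga-1 larvae (-0.20). Their log2 differences ran from -0.04 to 0.09 in ogt-1 larvae. The glct probe sets were dim, with means over all arrays from 3.97 for glct-6 to 5.26 for glct-4. The lack of calls therefore does not show unchanged expression.

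**Figure D4:**
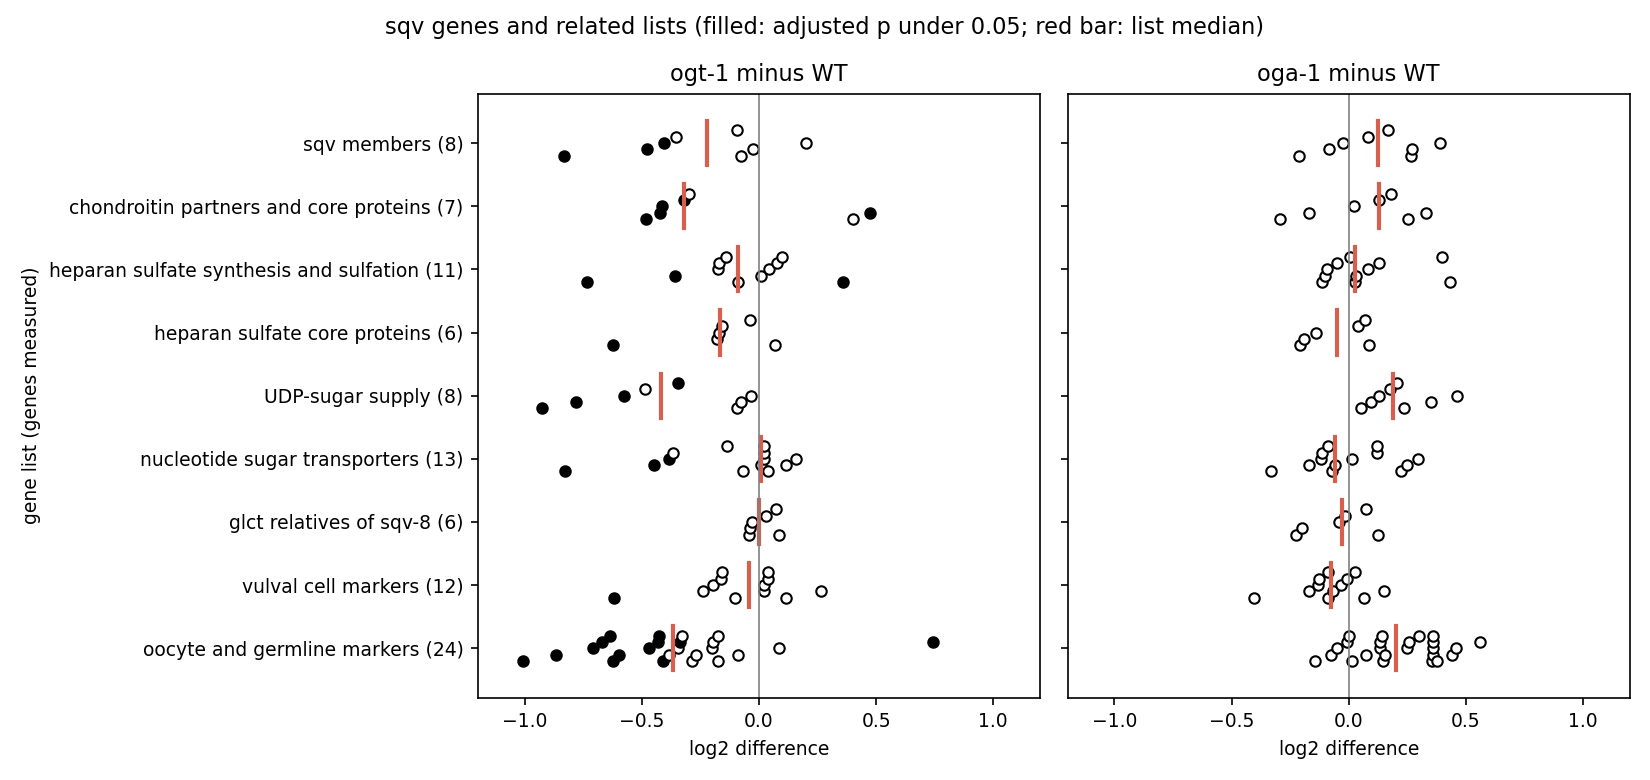
Log2 differences of single genes in ogt-1 minus wild type (WT, left) and oga-1 minus wild type (right), for the sqv genes, the related lists and 2 marker lists; each point is a gene, filled where its adjusted p was under 0.05, and the red bar is the list median. The left panel holds 3 filled sqv points and 12 filled oocyte and germline points below 0, and the right panel holds no filled point.

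Markers of the cell types in the larva were set beside these values. Of 24 oocyte and germline markers 12 fell and 1 rose in ogt-1 larvae, with a median log2 difference of -0.37. Between the mutants 18 were lower in ogt-1 larvae and 0 higher, with a median of -0.64. For these and the other markers, the shares over all genes were 9.72% lower and 8.65% higher against the wild type. Against oga-1 larvae the shares were 14.7% lower and 10.3% higher. The germ granule helicase gene glh-1 fell by 0.87 (its other probe set was not called, at -0.50) and the oocyte gene cey-3 by 0.71, while nos-2 rose by 0.74. Against oga-1 larvae oma-2 stood at -1.23 (-0.57 by its other probe set) and cey-3 at -0.70. The log2 of their summed signal ran from 14.49 to 14.82 in ogt-1 arrays, from 15.20 to 15.33 in oga-1 arrays and from 15.01 to 15.18 in wild-type arrays, and none was at 0. The mean of their log2 signals differed between ogt-1 larvae and the wild type by -0.37. Beside it, sqv-7 differed by -0.41 (-0.52 by its other probe set), sqv-2 by -0.48 and sqv-5 by -0.83 (-0.52 by its other probe set). The part of these markers in the sqv results was not tested.

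Of 12 vulval cell markers 1 fell in ogt-1 larvae, the cadherin gene cdh-3, by 0.62 (limma adjusted p = 0.012), with a median of -0.04 for the list. Many of these markers were dim, with means over all arrays from 4.25 for ceh-2 to 6.27 for egl-26. Their median therefore does not show that the vulval cells were unchanged. The log2 of the summed signal of these markers was 8.73 to 8.80 in ogt-1 arrays, 8.68 to 8.88 in oga-1 arrays and 8.80 to 8.97 in wild-type arrays, and against oga-1 larvae 1 was higher, nhr-67, at 0.39. Sperm markers rose in 3 of 11, among them msp-142 by 0.39 and spe-38 by 0.37, with 0 lower and a median of 0.17, and between the mutants 3 were higher, with spe-38 at 0.77 and msp-3 at 0.31. Epidermis markers gave 0 of 7 calls in ogt-1 larvae against the wild type, with 0 of 7 unadjusted p under 0.05 in limma and a median of 0.04. Against oga-1 larvae 1 epidermis marker was lower, lin-26 at -0.47, but its other probe set was not called, at -0.29. Intestine markers gave 1 higher, ges-1 at 0.68, and 1 lower, act-5 at -0.91, of 7, in ogt-1 larvae and again between the mutants (0.69 and -0.70). In oga-1 larvae against the wild type limma called 0 genes of these marker lists or of the related lists above. An unadjusted p under 0.05 was seen there in 8 of 24 oocyte and germline markers, 3 of 7 chondroitin partner and core protein genes, 2 of 8 genes of UDP-sugar supply, 3 of 13 transporter genes and 2 of 11 genes of heparan sulfate synthesis. It was seen in 0 of 6 heparan sulfate core protein genes and in 1 gene each of the vulval, sperm, epidermis and intestine lists. The share of all genes at this unadjusted limit was not counted, so these counts have no background beside them.

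Control probe sets were compared between the strains in the same way. The 18 hybridisation controls averaged 9.38 ± 0.12 in ogt-1 arrays, 9.14 ± 0.11 in oga-1 arrays and 9.11 ± 0.09 in wild-type arrays (SD, n = 3 each). The actin 3' minus 5' signal, which falls where amplified RNA reaches further, was 4.04 ± 0.12 in ogt-1 arrays, 4.20 ± 0.26 in oga-1 arrays and 4.77 ± 0.05 in wild-type arrays (SD, n = 3 each). The Gapdh 3' minus 5' signal was 2.87 ± 0.13 in ogt-1 arrays, 3.12 ± 0.16 in oga-1 arrays and 3.24 ± 0.10 in wild-type arrays (SD, n = 3 each). In ogt-1 arrays against the wild type the exact permutation p, two-sided, was 0.1 for each of the 3 measures, the smallest that 3 against 3 arrays can give. In oga-1 arrays against the wild type it was 0.1 for actin, 0.2 for Gapdh and 0.6 for the hybridisation controls. Their part in the sqv differences was not tested.

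The genes whose 9 array values ran most like those of a called sqv gene were found by Pearson correlation over the 9 arrays, which share 3 strains, and the values are descriptions of a search over all genes. For sqv-5 these were the release factor gene erfa-1 (r = 0.991), D2024.5 (r = 0.987) and the proteasome gene pbs-3 (r = 0.987), each called lower in ogt-1 larvae than in the wild type. For sqv-2 they were pas-4 (r = 0.992), hmg-4 (r = 0.992) and ess-2 (r = 0.986). For sqv-7 they were the DNA polymerase gene pole-2 (r = 0.992), brc-2 (r = 0.991) and the RNA polymerase gene rpb-8 (r = 0.989). For sqv-1 they were pdtf-1 (r = 0.973), pup-2 (r = 0.971) and unc-37 (r = 0.964), each higher in oga-1 than in ogt-1 larvae by the test, at ogt-1 minus oga-1 differences of -0.25, -0.40 and -0.57.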

How the data were processed

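Per the labels, total RNA of 20 L4 larvae per array was amplified with T7 polymerase, labelled with biotin and hybridised to an Affymetrix array. The authors deposited log2 probe set signals on a common scale. The submitters' processing notes name MAS5, RMA and Partek without role or version, and no source names the background correction. Scan files were not used here. Of 22625 probe sets, 77 controls were left out. Symbols came from the platform annotation, checked through gene identifiers against RefSeq (0 changed). Of the rest, 20766 probe sets named 1 gene, 887 several and 895 none. The probe set with the highest mean over the 9 arrays stood for a gene.

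Strain was the only term of a linear model of all 9 arrays, run in limma 3.58.1 (R 4.3.3) (6 residual degrees of freedom), p-values were adjusted by Benjamini-Hochberg over the 22548 probe sets, and the script was tested on simulated data. Precision is set by the 3 arrays per strain, and a difference had a standard error of 0.11 for the median gene. No low-signal filter or pseudocount was used.

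The sqv genes, the lists and the naming rule were chosen with earlier results of these data known. The lists were written from general knowledge. The rule names all sqv probe sets and, in each other list, up to 2 called genes per direction and comparison by smallest p. It also names the 3 genes most correlated with each called sqv gene. Alternatives were the 2 strains alone, quantile normalization, median centring, filters on dim probe sets, array weights, a trended robust variance, other call limits, probe set means, leaving out each array and the replicate block. Added after seeing the data were the array spread as a covariate, leaving out 3 arrays with an SD over 1.8, and the other probe sets of sqv-5 and sqv-7.

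Replicate numbers run from 1 to 3 in every strain with no stated pairing. Deviations from the strain mean of same-numbered arrays correlated at -0.17 to 0.24 over 9 pairs, so the arrays were treated as unpaired.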

Additional observations from a re-analysis of the deposited data

How the results depend on the processing

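Under 23 alternatives, 496 of 537 member differences kept their direction and their side of the threshold, 15 lost and 12 gained a call, and 14 changed sign, none of which belonged to a called difference. Of the ogt-1 calls against the wild type, that of sqv-5 held under each alternative (adjusted p up to 0.014), and those of sqv-2 and sqv-7 ended where at least 1.5-fold was required, which left 1 called gene in place of 3 against the wild type and 2 in place of 4 against oga-1. Without the 3 arrays with an SD over 1.8 (ogt-1 array 3, oga-1 arrays 1 and 3), with the lone oga-1 array left taken to have the spread of the other strains, 1 gene was called between the mutants, and 4 in ogt-1 larvae. Array weights gave 1 call in oga-1 larvae, sqv-4. Leaving out single arrays gave 2 to 4 calls in ogt-1 larvae, 0 in oga-1 larvae and 3 to 6 between the mutants.

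The sign changes all concerned uncalled differences, and the cause was not tested. Without single arrays, the ogt-1 difference from the wild type ran from -0.117 to 0.00077 for sqv-1 and from -0.0708 to 0.0554 for sqv-3, and the oga-1 difference ran from -0.0775 to 0.0310 for sqv-5, from -0.0047 to 0.128 for sqv-7 and from -0.175 to 0.0823 for sqv-8. For oga-1 against the wild type, median centring gave 0.0227 for sqv-5, quantile normalization -0.0228 for sqv-7, the other probe set -0.0790 for sqv-7, and array weights 0.0391 for sqv-8. Without the 3 wide arrays the oga-1 differences were -0.0589 for sqv-3, in place of 0.27, and -0.0036 for sqv-7, and ogt-1 minus oga-1 was 0.0203 for sqv-8, in place of -0.27. With the replicate block 3, 0 and 4 sqv genes were called, as without it, and 4039, 77 and 5578 probe sets in place of 3891, 58 and 5381, in the order ogt-1 minus wild type, oga-1 minus wild type and ogt-1 minus oga-1. The filters on dim probe sets removed sqv-6, and the stricter also sqv-1, sqv-3 and sqv-8, so these have no value there.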
